A study of Mus musculus with 29 samples.

Results

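The sites bound by a pair of related homeodomain factors, DLX1 and DLX6, were compared in the mouse fibroblast line NIH-3T3. The peaks of the library labelled DLX1-HA (20124) and of the library labelled DLX6-HA (20983) made up 41107 of the 304922 peaks in the 28 lists of the series. Peaks of both lists that shared at least 1 bp were merged, which gave 30849 sites. Of these, 10091 sites held peaks of both lists and are called shared, 9929 held a DLX1-HA peak and no DLX6-HA peak (DLX1 only), and 10829 held a DLX6-HA peak and no DLX1-HA peak (DLX6 only). In both groups the cells carried the doxycycline transactivator rtTA3G and a lentiviral transgene for 1 factor with an HA tag, which was induced overnight with 500 ng/ml doxycycline before fixation, anti-HA chromatin precipitation and sequencing (ChIP-seq). The remaining 22 constructs of the series, of which 1 (OCT4-HA with SOX2-YPET) expressed a pair of factors, serve here for overlap. Each DLX factor has 1 list and no replicate, and the factors were overexpressed in fibroblasts, so binding by the native proteins in their own tissues was not measured. The lists give positions only, with no height or read number, so the depth behind each peak is unknown.

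The mouse Dlx genes are relatives of the fly gene Distal-less. They lie in neighbouring pairs, among them Dlx1 with Dlx2 and Dlx5 with Dlx6, and act in the GABA neurons of the forebrain, the branchial arches, bone and limb. Their homeodomain reads short AT-rich sites with the core TAATTA, which many other homeodomains also read. BHLHB8 (MIST1, gene Bhlha15), the factor whose lists enter most of the comparisons here, is a basic helix-loop-helix protein of secretory cells, and proteins of that family read E-boxes such as CAGCTG and CATATG. AP-1, the Fos and Jun dimers, reads TGACTCA and is found at many enhancers of fibroblasts.

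The label of the DLX1-HA library was first set against the peaks in the factor genes themselves. A coding-exon peak in a factor's own gene was present in several lists of the series. It was absent from others, among them EBF1-HA, FOXA1-HA, HLF-HA, MAX-HA, SOX2-HA and TEAD1-HA, so a missing one is not particular to this library. The library labelled DLX1-HA had no peak on the 3 coding exons of Dlx1 (chromosome 2, 71528113 to 71533981). Its single peak in that gene lay in an intron, from 71530568 to 71530735, and DLX6-HA and CDX2-HA had peaks at the same place. Of the 28 lists, BHLHB8-HA replicate 1 had a peak on a Dlx1 coding exon, from 71529621 to 71530230, which covered 237 bp (31.0%) of the coding bp. In Dlx6 (chromosome 6, 6863334 to 6868568) the library labelled DLX1-HA had a peak of 2209 bp, from 6865018 to 6867226, the widest of its list, which covered 380 bp of the coding exons. DLX6-HA had a peak of 3476 bp there, from 6863818 to 6867293, also the widest of its list, which covered 453 bp of the 891 coding bp. The library labelled DLX1-HA also had a peak of 536 bp from 144191125 to 144191660 on chromosome 5, over 90.7% of the single coding exon of Bhlha15. Both BHLHB8-HA lists had a peak on that exon, of 584 bp and 582 bp, and DLX6-HA had none.

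Thus 2 of the 21 factor genes, Bhlha15 and Dlx6, carried a coding-exon peak of the library labelled DLX1-HA, and 1 of 21, Dlx6, one of DLX6-HA. Over all 21829 protein-coding genes the share with a peak on coding exons was 4.95% for the DLX1-HA list and 2.07% for the DLX6-HA list. TEAD1-HA, with 7 of 21, also had coding-exon peaks in both Bhlha15 and Dlx6. Its Dlx6 peak, from 6863516 to 6864062, met the wide DLX6-HA peak but not the wide peak of the library labelled DLX1-HA. BHLHB8-HA had coding-exon peaks in 7 of 21 as well, among them Bhlha15 and Dlx1 but not Dlx6. For TEAD1-HA and BHLHB8-HA the share over all genes was not computed, so their 7 of 21 cannot be set against it. What these exon peaks come from was not tested, and DLX1 binding cannot be told apart from other contents of the library labelled DLX1-HA. The overlap of each class with BHLHB8-HA and TEAD1-HA is therefore given beside the results.

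**Figure D1:**
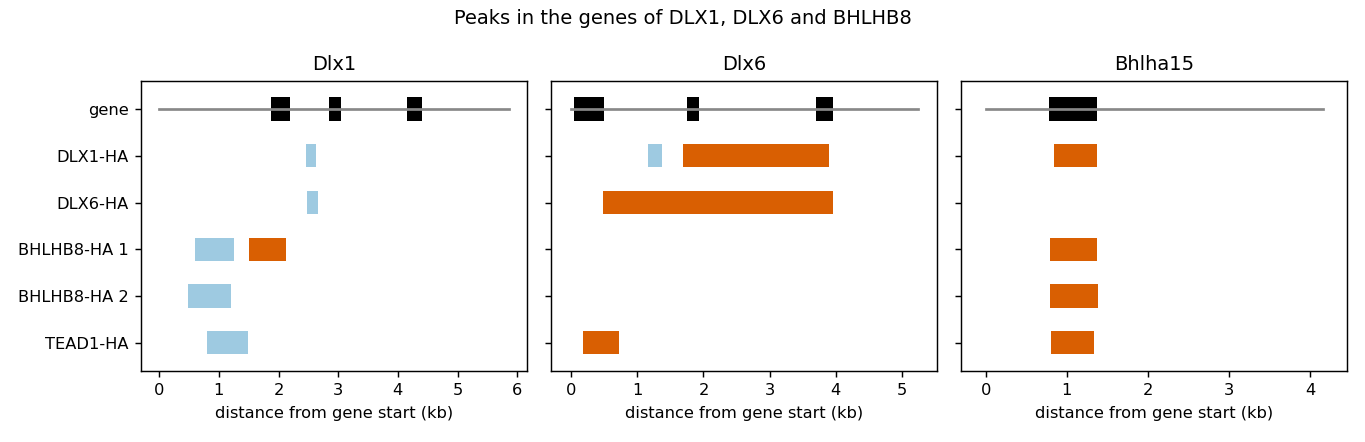
Peaks inside Dlx1, Dlx6 and Bhlha15 by list, with distance in kb from the start of the gene, where black boxes are coding exons, with orange bars are peaks that touch a coding exon and blue bars peaks that do not. The libraries labelled DLX1-HA and DLX6-HA share a wide peak over Dlx6, and the library labelled DLX1-HA shares the Bhlha15 exon peak with both BHLHB8-HA lists and TEAD1-HA.

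The sequences below are the central 200 bp of the widest sites of each class with TAATTA there, 2 each for shared and DLX1 only and 1 for DLX6 only, on the plus strand of GRCm38, and show how the core sits among other short sequences. Capitals mark the core TAATTA, the AP-1 site TGACTCA (or its complement TGAGTCA) and the E-boxes CAGCTG and CATATG. The shared sites lie in an intron of Tgfbr3, a TGF-beta co-receptor gene, and 229621 bp from the nearest protein-coding start, that of Zfp703, and carried peaks of 9 and 6 other constructs.
Shared, chr5:107167116-107167315: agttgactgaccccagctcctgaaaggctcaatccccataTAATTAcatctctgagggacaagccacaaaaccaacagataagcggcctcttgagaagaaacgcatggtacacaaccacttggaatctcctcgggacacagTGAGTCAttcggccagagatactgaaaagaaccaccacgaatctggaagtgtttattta
Shared, chr8:26747604-26747803: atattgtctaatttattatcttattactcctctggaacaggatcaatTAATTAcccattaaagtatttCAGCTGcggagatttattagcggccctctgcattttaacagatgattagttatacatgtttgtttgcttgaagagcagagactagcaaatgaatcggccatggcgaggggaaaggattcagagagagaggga
The DLX1 only sites lie 378 bp from a start of Ank3, which encodes a membrane scaffold protein, and 8462 bp from a start of the septin gene Sept7. Each also carried a BHLHB8-HA peak, and the Ank3 window holds the E-box CATATG just before the homeodomain core.
DLX1 only, chr10:69534500-69534699: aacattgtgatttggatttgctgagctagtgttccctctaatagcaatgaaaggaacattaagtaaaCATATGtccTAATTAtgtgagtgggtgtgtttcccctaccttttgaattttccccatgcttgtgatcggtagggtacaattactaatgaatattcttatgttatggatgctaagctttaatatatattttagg
DLX1 only, chr9:25243877-25244076: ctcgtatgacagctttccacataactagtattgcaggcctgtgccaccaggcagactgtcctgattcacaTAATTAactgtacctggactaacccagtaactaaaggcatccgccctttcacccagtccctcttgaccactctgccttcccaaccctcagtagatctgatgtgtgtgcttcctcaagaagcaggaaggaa
The DLX6 only site lies 136307 bp from Slc44a1, a choline transporter gene, and also carried peaks of BHLHB8-HA, EBF1-HA and SOX2-HA.
DLX6 only, chr4:53304006-53304205: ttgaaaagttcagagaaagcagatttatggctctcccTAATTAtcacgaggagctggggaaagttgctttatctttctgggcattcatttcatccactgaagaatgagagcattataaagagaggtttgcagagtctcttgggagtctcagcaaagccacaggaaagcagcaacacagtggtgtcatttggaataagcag

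A set chosen after the values were seen shows the widest site of each class with TAATTA and with no peak of any of the 22 other constructs. The shared site, near the predicted gene Gm3415, holds 7 matches to TAATTA within 200 bp. The DLX1 only and DLX6 only sites lie in introns of Lypd6 and of the potassium channel gene Kcnh5 and hold 1 match each.
Shared, chr5:146567679-146567878: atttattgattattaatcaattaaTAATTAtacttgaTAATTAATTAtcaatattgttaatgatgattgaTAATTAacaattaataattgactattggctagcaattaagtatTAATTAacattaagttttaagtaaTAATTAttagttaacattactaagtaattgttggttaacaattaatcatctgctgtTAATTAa
DLX1 only, chr2:50106655-50106854: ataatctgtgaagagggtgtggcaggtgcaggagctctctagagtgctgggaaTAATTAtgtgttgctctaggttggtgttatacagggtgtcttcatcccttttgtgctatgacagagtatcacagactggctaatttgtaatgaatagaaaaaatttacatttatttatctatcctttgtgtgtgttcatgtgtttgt
DLX6 only, chr12:75170903-75171102: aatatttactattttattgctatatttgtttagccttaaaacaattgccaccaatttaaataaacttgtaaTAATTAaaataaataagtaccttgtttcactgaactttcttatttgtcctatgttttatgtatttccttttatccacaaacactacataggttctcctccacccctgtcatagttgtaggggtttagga
The widest DLX1 only site with CAGCTG, also added afterwards, lies 512 bp from a start of the transporter gene Abcb6 and holds both E-boxes and no TAATTA. It carried peaks of BHLHB8-HA, SOX2-HA and TEAD1-HA.
DLX1 only, chr1:75179780-75179979: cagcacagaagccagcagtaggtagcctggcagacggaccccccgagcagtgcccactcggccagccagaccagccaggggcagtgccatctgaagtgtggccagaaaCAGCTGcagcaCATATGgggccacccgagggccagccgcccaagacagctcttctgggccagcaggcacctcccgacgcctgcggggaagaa

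About as many peaks of either list met the other DLX list as did not. Of the DLX1-HA peaks, 10195 of 20124 (50.7%, 95% exact interval 50.0 to 51.4) overlapped a DLX6-HA peak, and 10154 of the 20983 DLX6-HA peaks (48.4%, 47.7 to 49.1) overlapped a DLX1-HA peak. When the peaks were moved 5 kb downstream, 1.72% and 1.85% overlapped. The other DLX list was not the list met most often. The library labelled DLX1-HA overlapped BHLHB8-HA replicate 1 (73.5%) and replicate 2 (54.7%) more often than DLX6-HA, and DLX6-HA overlapped BHLHB8-HA replicate 1 (65.5%) and SOX2-HA replicate 1 (63.2%) more often than DLX1-HA. These lists hold more peaks, 46842, 61991 and 25049. Between duplicate lists of 1 construct, the overlap ran from 14.2% to 92.8% of peaks, with 53.3% and 39.2% for BHLHB8-HA, the duplicates nearest in size to each other. Intervals cover counting error over peaks only.

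Few sites lay close to the border of the rule. Of the 10258 overlapping pairs of peaks, 125 (1.22%) shared less than 50 bp, and the median overlap was 262 bp. Of the peaks without an overlap, 286 of the DLX1-HA list (2.88%) and 249 of the DLX6-HA list (2.30%) ended within 200 bp of a peak of the other list. Shared sites were wider, with a median of 454 bp against 243 bp for DLX1 only and 248 bp for DLX6 only. Width is tied to the rule, because a wide peak meets another list more easily and merging adds length.

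DLX1 only sites lay nearest to genes. Of these sites, 22.4% (21.6 to 23.3) had their centre within 1 kb of a protein-coding transcript start, against 10.3% (9.71 to 10.9) of DLX6 only sites and 5.70% (5.25 to 6.17) of shared sites. Such promoter windows cover 2.44% of the known genome sequence. The difference between DLX1 only and DLX6 only sites was 12.2 percentage points (Fisher's exact test over sites, two-sided, adjusted p = 3.38e-126), and shared sites were lower than DLX1 only sites by 16.7 points (difference -16.7, adjusted p = 1.33e-268) and lower than DLX6 only sites by 4.58 points (difference -4.58, adjusted p = 2.95e-34). These tests compare the sites of 2 libraries and not the factors, since each factor has 1 list. The median distance to a start was 14696 bp for DLX1 only, 34560 bp for DLX6 only and 32880 bp for shared sites. Away from promoters, introns held 33.8%, 36.9% and 39.9% of the DLX1 only, DLX6 only and shared sites, and 41.7%, 51.6% and 53.1% lay between genes. More than 100 kb from any start lay 14.9% of DLX1 only, 26.3% of DLX6 only and 22.8% of shared sites.

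Most promoter sites of every class were also occupied by BHLHB8-HA. Of the 2227 DLX1 only promoter sites, 2084 (93.6%) carried a BHLHB8-HA peak, 714 (32.1%) a TEAD1-HA peak and 98 (4.40%) a SOX2-HA peak. Of the 575 shared promoter sites, 91.3% carried a BHLHB8-HA peak, 16.2% a TEAD1-HA peak and 47.0% a SOX2-HA peak. Of the 1113 DLX6 only promoter sites, 68.6% carried a BHLHB8-HA peak, 9.16% a TEAD1-HA peak and 25.7% a SOX2-HA peak. Once all sites with a BHLHB8-HA peak were left out, an alternative added after seeing the data, the promoter difference between DLX1 only and DLX6 only sites turned to -1.83 points (Fisher's exact test, adjusted p = 0.00267). Among sites of no other construct the difference was -0.0556 points (Fisher's exact test, adjusted p = 1.000).

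**Figure D2:**
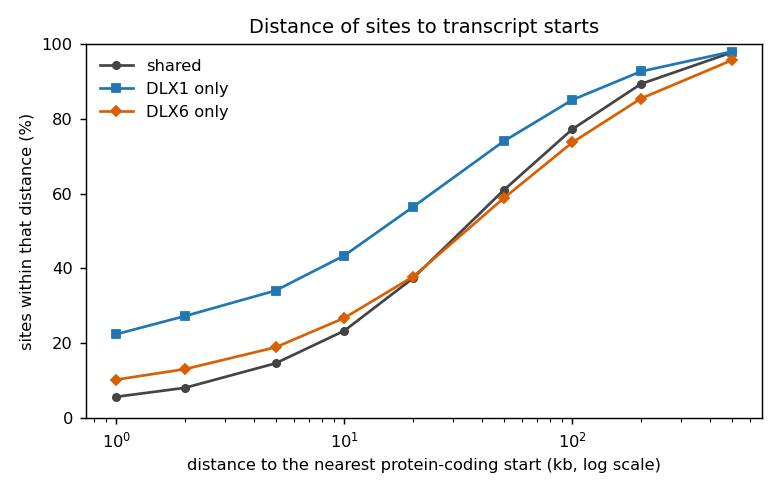
Share of sites (%) within a given distance (kb, log scale) of the nearest protein-coding transcript start, for the 3 classes. The DLX1 only line starts at 22.4% within 1 kb and stays above the other classes, and the shared line starts lowest, at 5.70%.

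BHLHB8-HA was the construct found most often at all 3 classes. A BHLHB8-HA peak was present at 82.7% (82.0 to 83.5) of shared, 71.8% (70.9 to 72.7) of DLX1 only and 53.4% (52.5 to 54.4) of DLX6 only sites. With the sites moved 5 kb downstream the shares were 6.98%, 5.09% and 5.21%. The difference between DLX1 only and DLX6 only sites was 18.4 points (Fisher's exact test, adjusted p = 5.99e-165). By replicate, the shares at shared, DLX1 only and DLX6 only sites were 81.2%, 66.3% and 51.2% for BHLHB8-HA replicate 1 and 52.5%, 58.3% and 21.6% for replicate 2. DLX1 only sites stood above DLX6 only sites in both replicates. The order of shared and DLX1 only sites differed between them, at 10.9 points with both lists (Fisher's exact test, adjusted p = 2.50e-76) and -5.75 points without replicate 1 (adjusted p = 3.72e-16), and it also turned among sites of 300 to 500 bp (-4.46 points, adjusted p = 5.98e-06).

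SOX2-HA separated the classes the other way. SOX2-HA peaks were present at 78.4% of shared sites, 49.7% of DLX6 only sites and 18.8% of DLX1 only sites, a difference between the last 2 of -30.8 points with DLX6 only the higher. In SOX2-HA replicate 2, the smaller list, the shares were 26.0%, 8.43% and 3.84%. The most common state of a shared site was to carry both BHLHB8-HA and SOX2-HA (66.9%), and the most common state of a DLX1 only site was BHLHB8-HA without SOX2-HA (59.0%). DLX6 only sites were spread over the states, with 32.1% carrying both, 29.0% neither, 21.3% BHLHB8-HA alone of these and 17.6% SOX2-HA alone.

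Of the 22 other constructs, 11 were more frequent at DLX6 only sites, 4 were more frequent at DLX1 only sites and 7 did not pass the test (Fisher's exact test, Benjamini-Hochberg over 66 tests). The 11 included the pioneer factor FOXA1-HA (11.5% of DLX6 only against 3.52% of DLX1 only sites), SOX15-HA (8.87% against 2.51%), the homeodomain factors SIX6-HA (9.16% against 4.27%), DUXBL-HA (9.47% against 5.37%) and CDX2-HA (9.03% against 6.01%), and EBF1-HA (11.4% against 7.45%). The 4 were BHLHB8-HA, TEAD1-HA, OCT4-HA with SOX2-YPET and PRR3-HA. TEAD1-HA, a factor of the Hippo pathway, was present at 8.01% of DLX1 only, 1.19% of DLX6 only and 1.90% of shared sites (DLX1 only minus DLX6 only 6.82 points, Fisher's exact test, adjusted p = 7.97e-136). Away from promoters it was present at 1.05% of DLX1 only, 1.04% of shared and 0.278% of DLX6 only sites. PRR3-HA had 62 peaks in all and OCT4-HA with SOX2-YPET was present at under 1% of every class. Shared sites were above DLX6 only sites for all 22 constructs and above DLX1 only sites for 20, with TEAD1-HA lower and 1 not passing the test.

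Only 3.61% of shared sites were free of every other construct, against 18.1% of DLX1 only and 22.6% of DLX6 only sites. Shared sites were also wider, and these gaps were smaller among sites of more similar width. For overlap with any other construct, sites of 300 to 500 bp gave shared minus DLX1 only as 3.26 points. Shared minus DLX6 only was 4.35 points there. With peaks of at least 300 bp the differences were 4.44 and 4.53 points. The mean number of other constructs was 3.70 at shared, 1.44 at DLX1 only and 1.85 at DLX6 only sites. Exactly 1 other construct was present at 44.3% of DLX1 only sites. Sites with 10 or more other constructs numbered 190 among shared, 28 among DLX1 only and 18 among DLX6 only sites. The first differed from the others (Fisher's exact test, adjusted p = 1.92e-30 and 1.87e-40), and DLX1 only and DLX6 only sites differed by 0.116 points (adjusted p = 0.109).

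**Figure D3:**
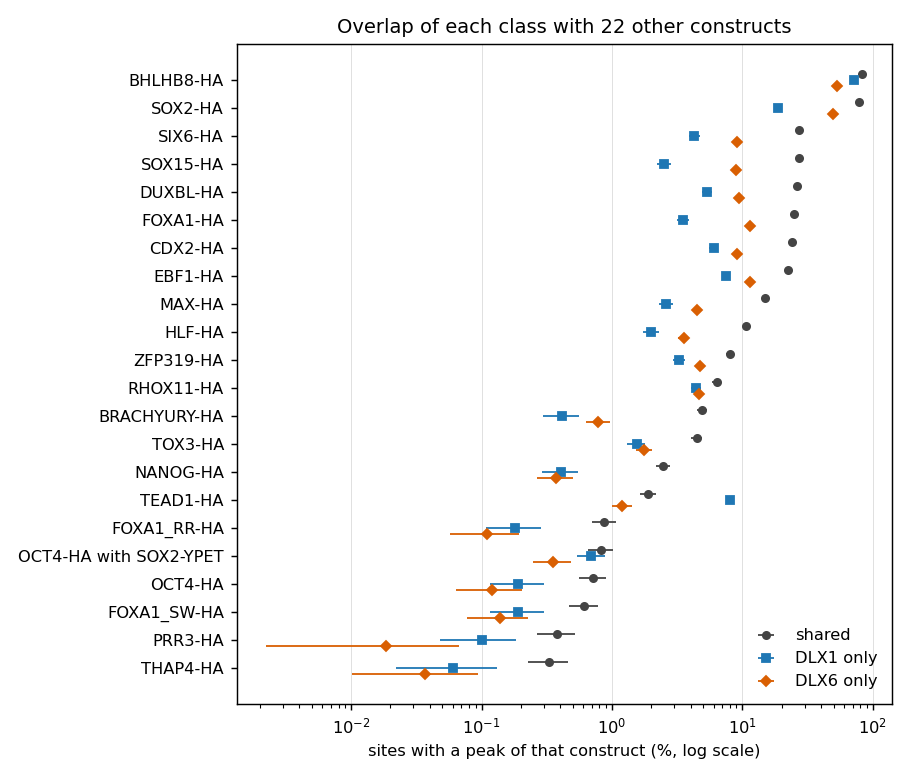
Share of sites (%, log scale) with a peak of each of the 22 other constructs, by class, with 95% exact intervals as bars. Shared sites (grey) lie to the right in all rows but TEAD1-HA, where DLX1 only sites (blue) reach 8.01%, and DLX6 only sites (orange) lie right of DLX1 only sites for SOX2-HA, SOX15-HA and FOXA1-HA.

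The homeodomain core was found most often at DLX6 only sites. TAATTA was counted on both strands in the central 200 bp and stood in 12.1% (11.4 to 12.7) of DLX6 only, 8.36% (7.82 to 8.92) of DLX1 only and 8.44% (7.91 to 9.003) of shared windows. Control windows, of 200 bp placed 5 kb downstream and free of peaks in all 28 lists, held it in 6.65%, 5.49% and 6.17%, and all 200 bp windows of the genome in 7.20%. The difference between DLX1 only and DLX6 only sites was -3.69 points (Fisher's exact test, adjusted p = 2.28e-18), and shared and DLX1 only sites differed by 0.0838 points (adjusted p = 0.839). Over whole lists, DLX6-HA (10.2% of peaks) and the library labelled DLX1-HA (8.30%) came next for TAATTA among the 28 lists after CDX2-HA (14.0%), itself a homeodomain factor.

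TAATTA was concentrated at sites without other constructs. Among sites with no BHLHB8-HA peak it was present in 19.2% of shared, 21.0% of DLX1 only and 20.9% of DLX6 only windows, and among sites with a BHLHB8-HA peak in 6.21%, 3.38% and 4.32%. Without the sites that carried BHLHB8-HA, the difference between DLX1 only and DLX6 only was 0.113 points (Fisher's exact test, adjusted p = 1.000). At sites of no other construct the share was 42.0% (36.9 to 47.3, 153 of 364) of shared, 34.1% (32.3 to 36.1) of DLX6 only and 26.0% (23.93 to 28.04) of DLX1 only windows. There, shared sites stood 7.90 points above DLX6 only sites (Fisher's exact test, adjusted p = 0.0117) and 16.1 points above DLX1 only sites (adjusted p = 1.09e-08), in an alternative added after seeing the data. Peak width also entered: among sites of 300 to 500 bp, shared sites were above DLX6 only sites by 1.58 points (Fisher's exact test, adjusted p = 0.0116) and DLX1 only and DLX6 only sites differed by -0.549 points (adjusted p = 0.454).

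E-boxes were most frequent at DLX1 only sites. CAGCTG was present in 36.8% (35.9 to 37.8) of DLX1 only, 21.5% (20.7 to 22.3) of shared and 10.7% (10.1 to 11.3) of DLX6 only windows, against 8.38%, 7.76% and 7.33% of the downstream windows. CATATG was present in 13.7% of DLX1 only, 6.15% of shared and 3.77% of DLX6 only windows, where the downstream windows held 5.26%, 5.80% and 6.01%. The difference in CATATG between DLX1 only and DLX6 only was 9.94 points (Fisher's exact test, adjusted p = 1.05e-149). The library labelled DLX1-HA (29.7% of peaks with CAGCTG, 10.3% with CATATG) stood near both BHLHB8-HA lists (37.8% and 35.1% with CAGCTG, 12.0% and 8.90% with CATATG), whereas DLX6-HA had 14.3% and 4.53%. At DLX1 only sites CAGCTG was present in 46.8% of windows with a BHLHB8-HA peak and 11.5% of those without. CATATG was present in 14.1% and 12.8% of the same windows, and in 15.6% of DLX1 only windows of no other construct, against 5.03% of the like DLX6 only windows.

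**Figure D4:**
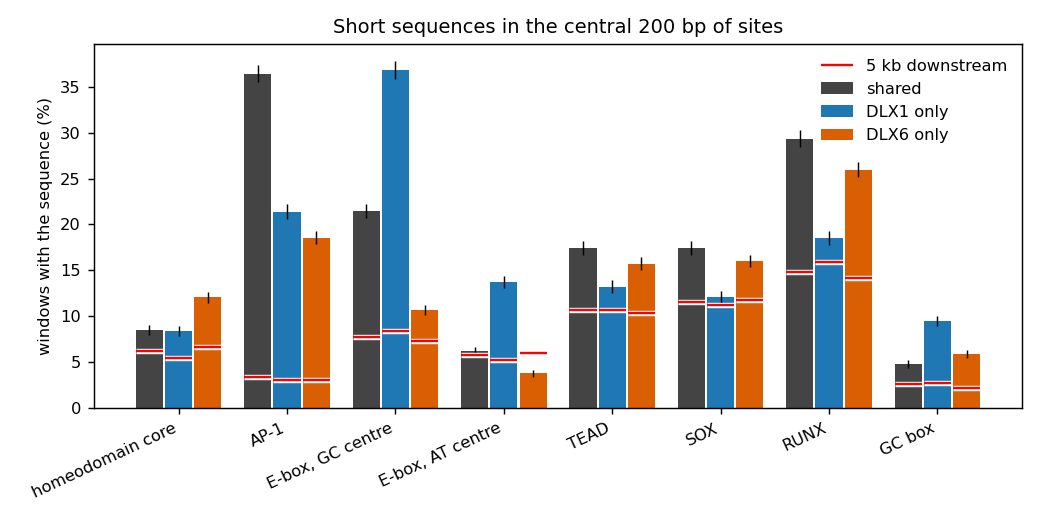
Share (%) of central 200 bp windows with each short sequence, by class, with 95% exact intervals as black bars and the share in windows 5 kb downstream as red lines. The sequences are TAATTA (homeodomain core), TGACTCA (AP-1), CAGCTG and CATATG (E-boxes with a GC and an AT centre), CATTCC (TEAD), ACAATG (SOX), TGTGGT (RUNX) and GGCGGG (GC box). AP-1 stands highest at shared sites (36.4%) and CAGCTG at DLX1 only sites (36.8%).

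The AP-1 sequence was present in all classes and most of all in shared sites. TGACTCA stood in 36.4% (35.5 to 37.4) of shared, 21.4% (20.6 to 22.2) of DLX1 only and 18.6% (17.8 to 19.3) of DLX6 only windows, and in 3.35%, 3.02% and 3.09% of the downstream windows. Shared sites were above DLX1 only sites by 15.1 points (Fisher's exact test, adjusted p = 1.76e-122) and above DLX6 only sites by 17.9 points (adjusted p = 5.18e-186). TGTGGT, the site of RUNX factors, followed SOX2-HA in its order, with 29.4% of shared, 25.9% of DLX6 only and 18.5% of DLX1 only windows. CATTCC, the TEAD site, was in 17.4%, 15.7% and 13.2% of the same windows. The class with the most TEAD1-HA peaks thus had the fewest TEAD sequences. The TEAD1-HA list itself held CATTCC in 4.51% of peaks, the lowest share of the 28 lists, so overlap with it did not mark TEAD sequences. GGCGGG, a GC box of promoters, was in 9.47% of DLX1 only, 5.90% of DLX6 only and 4.78% of shared windows.

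Among all 6-base words found in at least 5% of windows, the highest ratios to the downstream windows in shared sites belonged to parts of the AP-1 site, GACTCA (41.7% against 9.11%, a ratio of 4.58) and GAGTCA (4.13), then CAGCTG (2.76), AGTCAT (2.76) and AGTCAC (2.67). In DLX1 only sites they were CpG-rich words, CCGCGC (5.14% against 0.351%, a ratio of 14.6), CCCGCG (14.2), CGCGGC (14.1), CGCCGC (9.11) and GCGGCC (6.25), with CAGCTG in rank 9 (4.39). In DLX6 only sites they were CCGCCC (3.33), CCCGCC (2.78), GACTCA (2.68), GAGTCA (2.40) and AGTCAT (1.94), with TAATTA in rank 8 (1.81). TAATTA came in rank 100 in shared and rank 111 in DLX1 only sites. The central windows of DLX1 only sites held 4.31 CpG on average, against 2.65 in DLX6 only and 2.61 in shared windows. DLX1 only sites also had the largest share of promoter sites (22.4%), and these words and CpG numbers are not given apart by promoter here.

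**Figure D5:**
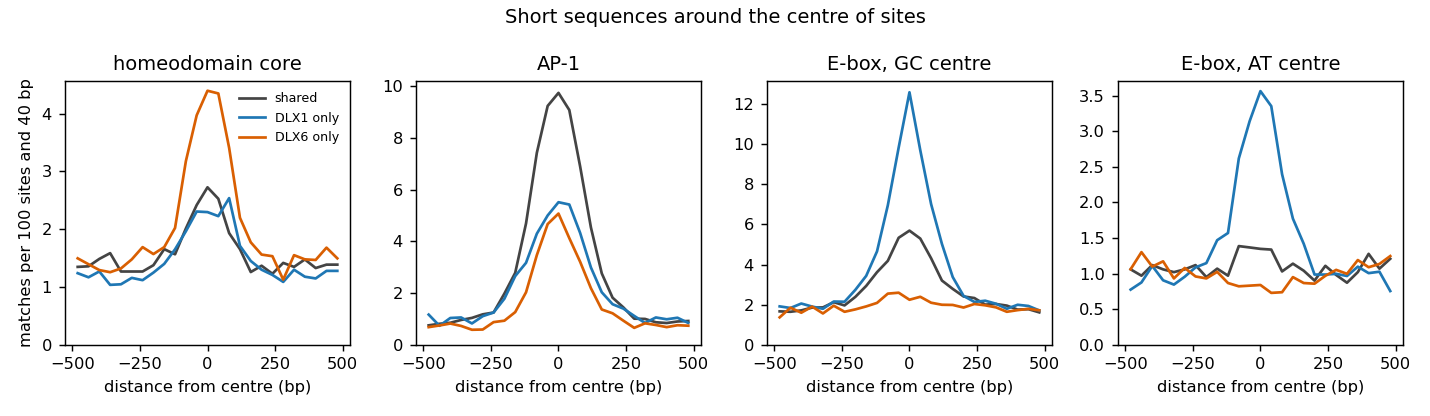
Matches per 100 sites in bins of 40 bp around the centre of sites (bp), for the homeodomain core, the AP-1 site and the E-boxes CAGCTG (GC centre) and CATATG (AT centre), by class. At the centre, TAATTA reached 4.40 per 100 sites in DLX6 only, 2.72 in shared and 2.30 in DLX1 only sites, and CAGCTG 12.6, 5.69 and 2.24 in DLX1 only, shared and DLX6 only sites.

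By nearest protein-coding start, shared sites were assigned to 20.9% of the 21829 genes, DLX1 only sites to 27.9% and DLX6 only sites to 23.3%. The median gene had 0 sites of each class. The genes with the most shared sites were Myc (25), the zinc-finger genes Zfp608 (22) and Zeb2 (21), Has2 (20), which makes hyaluronan, Klf6, Gm26657, Fzd1, Col3a1 and Trib2 (19 each) and Trps1 (18). Myc also had 14 DLX1 only and 25 DLX6 only sites, between 61454056 and 62890232 on chromosome 15. Most DLX1 only sites fell to Zfp386 (18), Myc (14), Sox9 and Zfp804b (13 each), Zeb2 (12), Mettl15 and Grm7 (11 each), and Kcna4, Tspan9 and Sept9 (10 each). Most DLX6 only sites fell to Zfp386 (32), Klf6 (27), Myc (25), Cited2 (23), Fggy and Zeb2 (22 each), Zfp608 and Trps1 (20 each), Marcks (19) and Sox6 (17). Myc and Zeb2 were among the 10 in all 3 classes. Many of these genes border long stretches with few other starts, and their sites lay far off, at a median of 1101162 bp for Zeb2, 664126 bp for Cited2 and 361904 bp for Myc.

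Single genes differed in which class they drew. Col3a1, the type III collagen gene, had 19 shared, 2 DLX1 only and 4 DLX6 only sites, and Fggy had 9 shared, 2 DLX1 only and 22 DLX6 only sites. Sox6, a gene of cartilage and neurons, had 13 shared, 1 DLX1 only and 17 DLX6 only sites. Tspan9 (2 shared, 10 DLX1 only, 3 DLX6 only) and the septin gene Sept9 (6, 10 and 3) leaned to the DLX1 only class, with median distances of 15477 bp and 7391 bp. These are counts of sites in 2 libraries, and no test was run per gene.

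The gene lists follow known roles of Dlx factors and of the host cell. Their counts stand beside the shares over all 21829 genes, 20.9% for shared, 27.9% for DLX1 only and 23.3% for DLX6 only sites. No list was tested against these shares. Of the 26 fibroblast genes, 21 were nearest to a shared site, 17 to a DLX1 only site and 19 to a DLX6 only site. Fn1, which encodes fibronectin, had 12 shared, 2 DLX1 only and 9 DLX6 only sites, and Col5a1 had 4, 6 and 0. Of 24 genes of the TGF-beta and activin pathway, 17 were near a shared, 20 near a DLX1 only and 15 near a DLX6 only site. Inhba, the activin subunit gene, had 11, 9 and 8 sites, the co-receptor gene Tgfbr3 had 7, 4 and 12, and the ligand gene Tgfb2 had 6, 1 and 10. Of 20 bone and limb genes the numbers were 11, 10 and 13. Sox9, the master gene of cartilage, had 18 shared, 13 DLX1 only and 17 DLX6 only sites, and Runx2, that of bone, had 9, 8 and 4.

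Of 30 genes of forebrain GABA neurons, 12 were nearest to a shared site, 11 to a DLX1 only site and 16 to a DLX6 only site. Their median number of sites was 0 in shared and DLX1 only and 1 in DLX6 only sites. Zeb2 held more of their 162 sites than the other genes (21 shared, 12 DLX1 only, 22 DLX6 only), followed by the semaphorin receptor gene Nrp2 (9 shared, 3 DLX1 only, 14 DLX6 only) and Maf (6, 3 and 9). Gad2, Slc32a1, Sst and Npy had none, and Gad1, a GABA synthesis gene, had 1 DLX1 only site. Of 25 branchial arch and craniofacial genes, 8, 10 and 7 were nearest to a site of the classes and 13 to none. Msx2 had 4, 3 and 2 sites. Of 13 AP-1 genes, 5, 6 and 5 were nearest to a site, with most at Jun (7 shared, 2 DLX1 only, 11 DLX6 only). Of 17 annotated Hippo pathway targets, 10, 10 and 11 were nearest to a site, and Ccn2 had 1, 1 and 6. Over all genes the shares were 20.9%, 27.9% and 23.3% for shared, DLX1 only and DLX6 only sites, and these lists were not tested against them. A nearest start does not show regulation, and genes with long flanks gather more sites.

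At the Dlx genes themselves, 8 sites lay within 100 kb of the Dlx1-Dlx2 pair and 2 within 100 kb of Dlx5-Dlx6. Besides the intron site of Dlx1, shared sites stood at 71588965 to 71589538 and 71594079 to 71595139 on chromosome 2, between genes and 42508 bp and 48020 bp from a start of Dlx2. They carried 6 and 7 other constructs, BHLHB8-HA, BRACHYURY-HA, EBF1-HA and SOX2-HA at both. A DLX1 only site lay 280 bp from a start of Dlx2 (71546217 to 71546730) with peaks of BHLHB8-HA and TEAD1-HA. A DLX6 only site, from 71548061 to 71548260, lay 1407 bp from that gene with no other construct. Near Dlx6, a DLX6 only site lay 61201 bp away (6801955 to 6802311 on chromosome 6) with 4 other constructs, and the other site was the wide exon peak. By nearest start, 5 of the 6 Dlx genes had a shared site, and Dlx5 had no site of any class. Over all 21829 genes the share with a shared site was 20.9%, and the Dlx genes were not tested against it. The shared site counted for Dlx6 is the wide exon peak, whose origin was not tested.

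The classes also differed between chromosomes. On chromosome 11, with 13.4 protein-coding genes per Mb, there were 0.821 DLX6 only sites per DLX1 only site, and on chromosomes 5, 15, 17 and 19 there were 0.868, 0.833, 0.832 and 0.847. Chromosome 7, with the most genes per Mb (13.8), had 1.07, and chromosome 15 had 7.50 genes per Mb. On chromosomes 10, 13, 16 and X there were 1.89, 1.71, 1.85 and 2.05. Chromosome X held 166 DLX6 only, 81 DLX1 only and 75 shared sites. A block at 3 to 11 Mb of chromosome 5, dense in peaks of other lists, held 0.842% of shared, 1.06% of DLX1 only and 0.970% of DLX6 only sites.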

How the data were processed

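Anti-HA ChIP-seq peaks of DLX1-HA and DLX6-HA in NIH-3T3 cells were compared, with 26 further lists of 22 constructs used for overlap. Per the labels and the study's methods, reads were aligned to mm10 with STAR 2.5.3a and unique alignments kept, duplicates were removed with Picard, and peaks were called per sample with MACS2 2.1.1.20160309 in paired-end mode. Peaks that met input peaks or blacklisted regions were discarded, so a region strong in input is missing from both lists. The deposited files hold chromosome, start and end in bp, and no score or depth, so lists called at unequal depth were compared as they stand. The input library has no list and was not used here.

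Groups were taken from the labels. Coordinates count from 1 on GRCm38, whose RefSeq sequence and GENCODE vM21 annotation were used. A promoter site has its centre within 1 kb of a protein-coding transcript start. The centre of a shared site is the middle of its longest overlap of the lists, and other centres are midpoints. Short sequences were counted on both strands of the central 200 bp, and control windows lay 5 kb downstream and touched no peak. TAATTA and both E-boxes read the same on both strands, and none of the searched sequences contains another. Shares were compared with Fisher's exact test over sites, two-sided, with Benjamini-Hochberg adjustment over 18 tests of features, 66 of constructs and 24 of short sequences, a threshold of 0.05, and exact (Clopper-Pearson) 95% intervals. Python 3.11.15, NumPy 2.4.6, pandas 2.3.3, SciPy 1.17.1 and Matplotlib 3.10.9 were used, and the overlap and test code was tested on simulated data.

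The members and gene lists were chosen with earlier results of these data known. The text names the 10 genes with the most sites per class by nearest start, the list genes with most sites, the 2 widest sites per class with TAATTA in the centre and not on chromosome 18 (1 of these, in the DLX6 only class, is not reported here), the sites within 100 kb of the Dlx1-Dlx2 and Dlx5-Dlx6 pairs, the peaks in factor genes, and the 5 words with the highest ratio per class. Any further item in the text was picked with its value known. Alternatives covered the overlap rule, peak width, chromosomes, promoter distance, window size and each BHLHB8-HA replicate.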

Additional observations from a re-analysis of the deposited data

How the results depend on the processing

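No paired analysis was possible because DLX1-HA and DLX6-HA have 1 list each and carry no replicate number. Of 147 values of the 18 comparisons between classes under other settings, 136 stayed on the same side of the threshold without reversing where they passed it. So did 26 of 36 under 3 settings added after seeing the data. The promoter, widely shared and AP-1 differences kept direction and side of the threshold under all of the former settings run for them. The exception was the AP-1 difference between DLX1 only and DLX6 only sites with peaks of at least 300 bp, 0.0588 percentage points (Fisher's exact test, adjusted p = 0.944). A value that passed in neither setting was counted as kept whatever its direction. TAATTA in shared minus DLX1 only sites is such a case, at 0.0838 points in the main setting. It was -0.704 with peaks up to 500 bp apart counted as shared and -1.87 without sites carrying BHLHB8-HA. The share of DLX1-HA peaks that overlapped DLX6-HA was 38.8% with a reciprocal overlap of 50% and 54.5% with peaks up to 500 bp apart counted as shared, and that of DLX6-HA peaks was 37.2% and 51.8%, and 44.7% among peaks of at least 300 bp.

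TAATTA and the overlap with other constructs moved with peak width, and the cause was not tested. With peaks of at least 300 bp, DLX1 only minus DLX6 only was 0.0836 points for any other construct and -0.0981 points for TAATTA, and shared sites exceeded DLX1 only sites by 1.35 points and DLX6 only sites by 1.25 points for TAATTA. Among sites of 300 to 500 bp these differences were 1.09, -0.549, 2.13 and 1.58 points, and shared minus DLX1 only was -4.46 points for BHLHB8-HA. Leaving out a BHLHB8-HA replicate gave that last difference as -5.75 points (without replicate 1) to 14.9 points (without replicate 2).

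Without promoter sites, shared minus DLX1 only was -1.43 points for TAATTA. Without sites carrying BHLHB8-HA, DLX1 only minus DLX6 only was -1.83 points for promoters, -15.6 for any other construct and 0.113 for TAATTA, and shared minus DLX6 only was -1.76 for TAATTA. Among sites of no other construct, the promoter differences were -0.0556 points for DLX1 only minus DLX6 only, -2.77 for shared minus DLX1 only and -2.82 for shared minus DLX6 only, and the TAATTA differences of shared sites were 16.1 and 7.90 points. Depth per list is unknown, so a site of 1 class may be a weak site of the other list below its calling threshold.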
